A study of Homo sapiens with 6 samples.

Results

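The zinc finger genes of chromosome 19 were examined in 6 RNA-seq libraries of NSCLC cell lines. The members are the protein-coding genes of the deposited table with a symbol made of ZNF and a number and a position on chromosome 19 in the deposited annotation. Of 242 genes that met this rule, the 240 with a read in at least 1 library were used, and ZNF99 and ZNF676 had none. The 240 members are part of 31353 genes with a read. H460, H1299, and A549 are human NSCLC cell lines. For each line there was 1 control library and 1 library of cells transfected with si-MALAT1, a small interfering RNA against the lncRNA MALAT1. The labels call the controls non-treated, and the study's methods also describe a si-Control without naming which was sequenced. The 2 libraries of a line differ in treatment and are its only repeats. Nothing says that they came from separate cultures beyond this, so a p-value between lines measures the spread between these libraries.

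Most genes of this family encode C2H2 zinc finger proteins, in which a pair of cysteines and a pair of histidines hold a zinc ion and each finger contacts a few bases of DNA. In many of them the fingers follow a KRAB box, which recruits TRIM28 (KAP1) and, through it, the histone methyltransferase SETDB1 and HP1 proteins, so that the bound DNA is silenced. Many KRAB zinc finger proteins bind transposable elements. The genes lie on chromosome 19 in clusters that arose by tandem duplication, and neighbours are therefore often alike in sequence.

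One finger unit is shown for ZNF91 and ZNF146, since it is the repeat that defines the family. Each run below covers 28 codons, from the first cysteine of a finger through the linker that leads to the next finger. It is read 5′ to 3′ on the coding strand of GRCh38, and the codons of the zinc-binding cysteines and histidines are in capitals. The ZNF91 stretch lies on the minus strand at chr19:23362094-23362177 and the ZNF146 stretch on the plus strand at chr19:36236660-36236743, both in coding exons.
ZNF91: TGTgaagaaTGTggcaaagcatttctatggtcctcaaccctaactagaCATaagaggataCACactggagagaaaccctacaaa
ZNF146: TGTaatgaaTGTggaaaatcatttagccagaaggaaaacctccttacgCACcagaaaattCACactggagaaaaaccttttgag

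By the pattern of the finger, the longest annotated proteins of the members held between 1 and 39 fingers, with a median of 12. A KRAB box was matched by a sequence pattern in 206 members and not in 34. The pattern can miss divergent boxes and can match other sequence by chance. Shared sequence can split reads between genes. In 57 members some spliced 100-base window was also present in another chromosome 19 gene, and in 17 members this held for over 10% of windows. ZNF177, ZNF20, and ZNF761 shared 93.9%, 96.0%, and 79.7% of their windows, and their counts are uncertain. Hardly any of these windows were shared with other members, with shares of 0.0%, 0.0%, and 1.37%.

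The promoters of 5 members are shown to set absent and high levels side by side. They are the 250 bases before 1 RefSeq start per gene on GRCh38.p14, read toward the gene. The start used for ZNF43 lies within the annotated gene, which reaches 21852095 on the minus strand. Other starts are not shown. ZNF83 and ZNF816 had no read in A549, ZNF43 had none in H460, ZNF91 was found mainly in H1299, and ZNF146 was at least 36.7 TPM in all libraries. The coordinates on chromosome 19 are 52690497 to 52690746 for ZNF83, 52962882 to 52963131 for ZNF816, 21836183 to 21836432 for ZNF43, 23395472 to 23395721 for ZNF91, all on the minus strand, and 36214856 to 36215105 for ZNF146 on the plus strand. Capitals mark 4 words of 8 bases described further on, on either strand.
ZNF83: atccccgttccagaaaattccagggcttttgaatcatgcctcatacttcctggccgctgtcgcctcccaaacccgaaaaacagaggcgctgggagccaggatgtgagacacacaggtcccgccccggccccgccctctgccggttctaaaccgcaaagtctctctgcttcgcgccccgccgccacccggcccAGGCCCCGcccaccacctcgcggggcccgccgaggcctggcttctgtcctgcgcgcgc
ZNF816: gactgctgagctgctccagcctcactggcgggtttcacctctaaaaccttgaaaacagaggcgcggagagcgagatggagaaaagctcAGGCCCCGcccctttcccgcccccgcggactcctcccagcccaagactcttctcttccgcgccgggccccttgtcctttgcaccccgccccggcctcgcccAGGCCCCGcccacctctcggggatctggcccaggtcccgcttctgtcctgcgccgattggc
ZNF43: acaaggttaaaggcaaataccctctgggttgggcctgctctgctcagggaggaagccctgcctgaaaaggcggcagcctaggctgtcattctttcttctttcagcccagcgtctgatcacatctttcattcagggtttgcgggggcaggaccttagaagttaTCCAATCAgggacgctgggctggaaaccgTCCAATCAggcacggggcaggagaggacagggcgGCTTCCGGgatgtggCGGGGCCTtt
ZNF91: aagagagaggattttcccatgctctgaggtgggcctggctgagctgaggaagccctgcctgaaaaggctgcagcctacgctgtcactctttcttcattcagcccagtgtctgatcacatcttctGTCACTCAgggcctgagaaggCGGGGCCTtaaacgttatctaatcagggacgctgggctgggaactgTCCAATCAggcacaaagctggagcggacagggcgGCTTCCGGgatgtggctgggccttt
ZNF146: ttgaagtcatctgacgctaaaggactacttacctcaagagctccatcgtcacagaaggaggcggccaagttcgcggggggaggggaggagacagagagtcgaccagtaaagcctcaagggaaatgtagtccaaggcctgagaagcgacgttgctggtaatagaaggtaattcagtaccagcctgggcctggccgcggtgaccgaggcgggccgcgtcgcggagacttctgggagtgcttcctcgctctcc

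The libraries held between 42506818 and 68515992 counted reads, and A549 was the shallower line. MALAT1 was lower in the si-MALAT1 library of each line, at 82.5 against 452 TPM in H460, 109.8 against 805 TPM in H1299, and 42.2 against 305 TPM in A549. The fitted log2 difference was -2.72 (SE 0.16), with an adjusted p of 0.054 by edgeR's quasi-likelihood test. Summed levels of 5 epithelial keratin and adhesion markers were between 458 and 4728 TPM, but the markers differed. KRT8 and KRT18 were at least 122.55 TPM in each library. KRT19 was at 550 and 399 TPM in H460, 0.26 and 0.23 TPM in H1299, and 0.89 and 2.23 TPM in A549. In H460 and H1299, EPCAM was at most 0.78 TPM and CDH1 at most 0.05 TPM. All 3 leukocyte, 3 endothelial, and 4 lung epithelium markers were under 1 TPM in each library, and the highest summed fibroblast level of 3 markers was 2.03 TPM. CDKN2A, known to be deleted in H460 and A549, was listed at 0 there and at 47.2 and 49.3 TPM in the H1299 libraries.

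Members were most abundant in H1299. TPM, a level scaled for gene length and library depth, summed over the members to 639 in the control and 586 in the treated library of H460. The sums were 1515 and 1487 in H1299, while A549 had 665 and 677. The median member was at 1.69 and 1.67 TPM in H460, 4.79 and 4.72 TPM in H1299, and 1.28 and 1.37 TPM in A549. Both H1299 libraries thus lay above the other 4 on each measure, and the treatments of a line lay close together. At a line mean of at least 1 TPM there were 142 members in H460, 217 in H1299, and 127 in A549. Of 227 numbered ZNF genes on other chromosomes, 184, 204, and 190 reached this level, and their median TPM was 3.06, 4.59, and 3.38. For 979 other coding genes of chromosome 19 the median was 2.34, 5.31, and 3.43 TPM, also with the highest value in H1299.

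**Figure D1:**
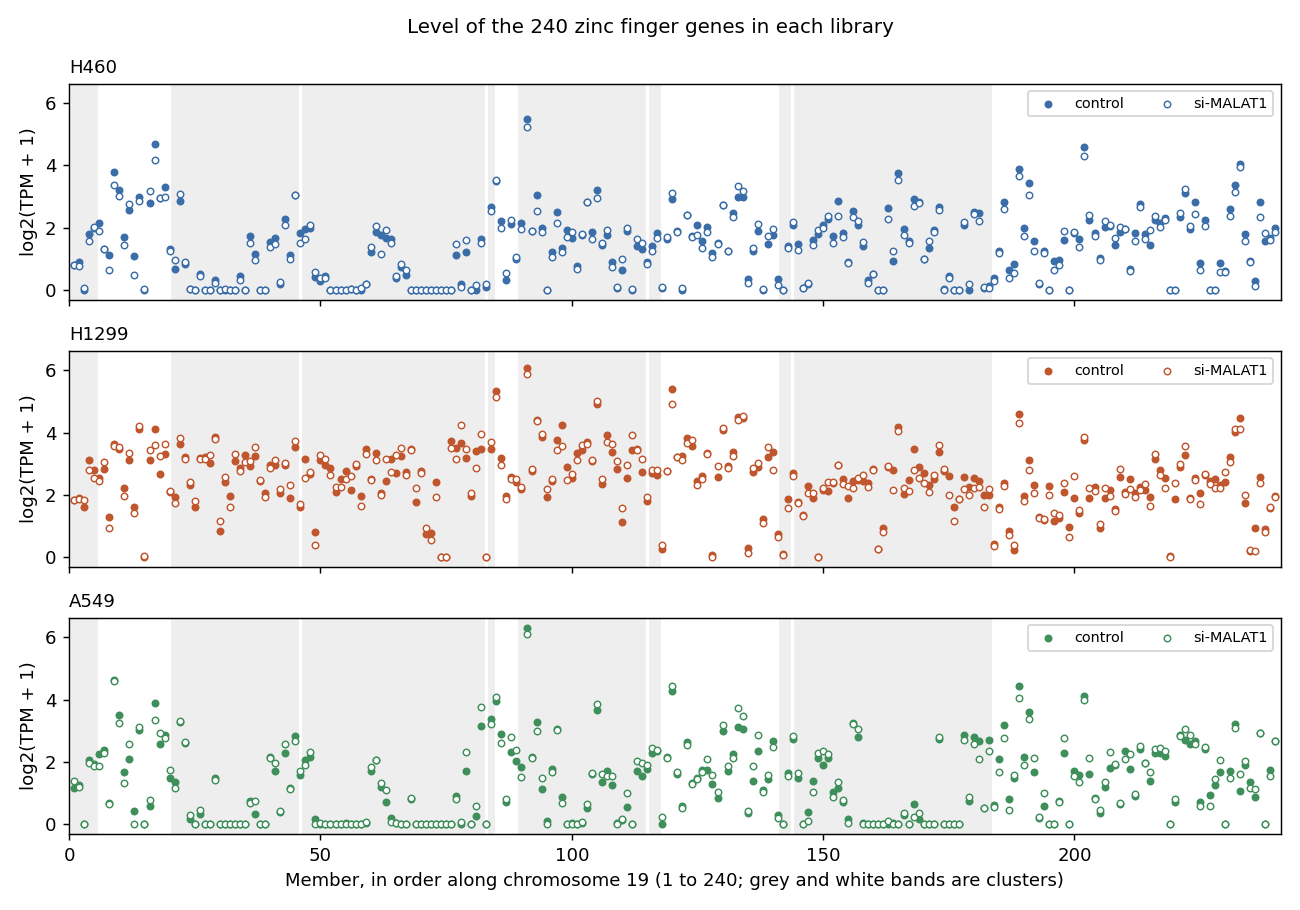
Level of the 240 members as log2(TPM + 1) in the control (filled) and si-MALAT1 (open) library of H460, H1299, and A549, in order along chromosome 19, with clusters as alternating bands. Runs of neighbours lie at 0 in H460 and A549, while nearly all members are above 0 in H1299.

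ZNF146 (Gene ID 7705), which encodes a protein made almost only of fingers, was the most abundant member, with a mean of 58.2 TPM over the libraries. It was at 43.4 and 36.7 TPM in H460, 65.5 and 58.0 TPM in H1299, and 78.1 and 67.2 TPM in A549. The A549 libraries were higher than the H460 libraries by 0.57 on the log2 scale of the fit (SE 0.13, adjusted p = 0.019 by edgeR), and the other pairs of lines did not pass the test. Without any one library of A549 or H460 this call was lost, and the adjusted p reached 0.19 over the alternatives. The next members were ZNF302 at 20.9, ZNF428 at 20.6, ZNF581 at 17.3, and ZNF875, formerly HKR1, at 16.7 TPM on average. ZNF302 was at 10.4 and 10.7 TPM in H460, 39.2 and 34.4 TPM in H1299, and 14.7 and 16 TPM in A549. For ZNF302, as for ZNF428 and ZNF875, both H1299 libraries were above the 4 others without overlap.

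The lines were compared in 1 fit over 21771 genes with the treatment as a further term, and 236 members passed its filter on low counts. Between H1299 and H460, 144 members were higher in H1299 and 13 lower at an adjusted p under 0.05, whereas 25.9% and 24.8% of all genes tested were called in these directions. The shares among members were 61.0% and 5.5%. Of the members, 30 had at most 3 reads in H460 and at most 3 in A549. Those of them that were tested passed the filter through their H1299 reads, so higher in H1299 was their only possible direction. This limit holds for all counts of members against H1299 below. The median log2 difference of the members was 1.22, against 0.04 for all genes tested, 0.19 for 224 numbered ZNF genes on other chromosomes, and 0.73 for 864 other coding genes of chromosome 19. Of the other coding genes of chromosome 19, 400 were called higher in H1299 and 87 lower.

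Between A549 and H1299, 13 members were higher in A549 and 160 lower, beside 22.8% and 24.4% of all genes. The median difference was -1.40 for members, -0.06 for all genes, -0.36 for ZNF genes elsewhere, and -0.49 for other coding genes of chromosome 19. Between A549 and H460, 33 members were higher and 66 lower in A549, which is 14.0% and 28% of them, beside 17.4% and 17.9% of all genes. The median there was -0.05, and -0.20 over the 209 members for which at least 1 of the 2 lines was above 3 reads and genes at 0 were set at 3 reads. ZNF genes elsewhere had 18.3% higher and 26.3% lower, with a median of -0.08, which was much like the members. With limma on log2(TPM + 1), 41 members were higher and 41 lower, and without the A549 si-MALAT1 or control library 18 or 20 were higher. Of the members, 25 had at most 3 reads in A549 alone and 5 in H460 alone. Those of them that were tested passed the filter through other lines, so their direction between A549 and H460 was largely set. The 3 contrasts share libraries and are not independent.

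**Figure D2:**
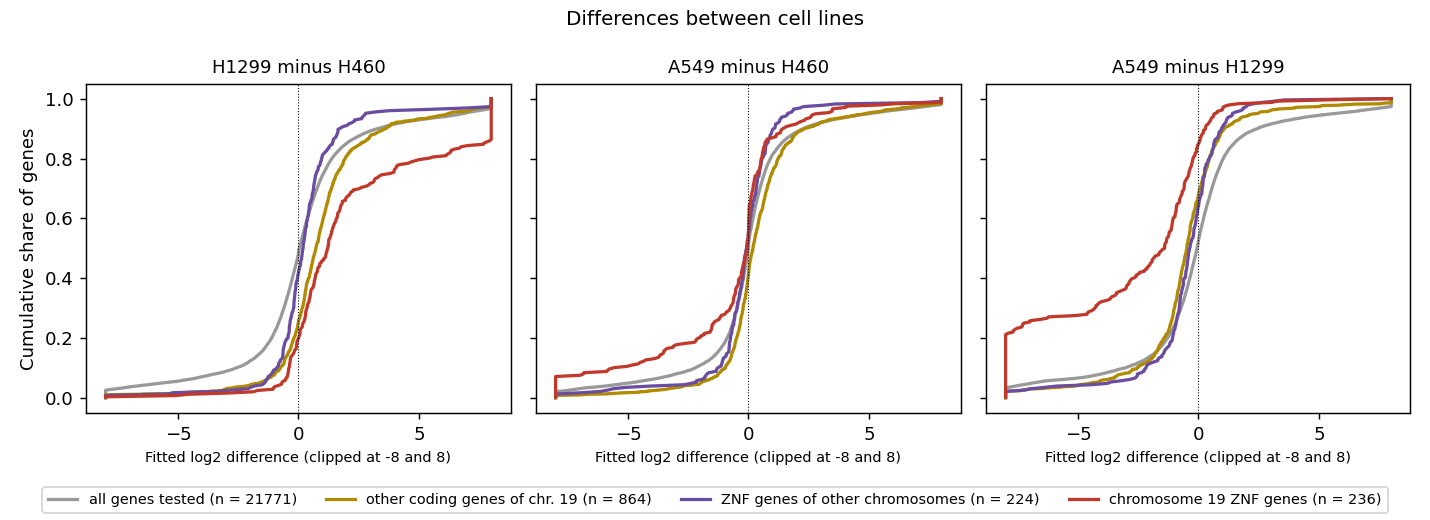
Cumulative share of genes by fitted log2 difference between lines for all 21771 genes tested, 864 other coding genes of chromosome 19, 224 ZNF genes elsewhere, and 236 members, with values past 8 drawn at 8. The members' curve lies right of the others in H1299 minus H460 and left of them in A549 minus H1299, and genes without reads in a line gather at the ends.

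Read by library rather than by the fit, both H1299 libraries were above the 4 others in 162 of the 236 members (68.6%) and below them in 18 (7.63%), beside 28.4% and 21.8% of all genes tested. Both A549 libraries were below the others in 84 members and above them in 14, beside 16.7% and 18.2% of genes. Both H460 libraries were below the others in 45 members and above them in 16, beside 18.2% and 20.7%. For H460 the share of members below was 19.1%, near that of all genes. A member without reads in a line could not lie above the others there.

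Members with and without a KRAB match were also described apart. In H1299 minus H460, 132 of 202 tested members with a match were higher and 7 lower, with a median log2 difference of 1.25. Of the 34 without a match 12 were higher and 6 lower, with a median of 0.59. The shares higher and lower were 65.3% and 3.5% with a match and 35.3% and 17.6% without, beside 25.9% and 24.8% of all genes. In A549 minus H1299 the medians were -1.83 and -0.67, with 149 of the 202 and 11 of the 34 lower in A549, or 73.8% and 32.4%, beside 24.4% of all genes. Whether the 2 kinds differ was not tested. Of those with a match 35 lie in the cluster from ZNF101 to ZNF254, where only 1 has none.

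A member was counted as not detected in a line when the 2 libraries together held at most 3 reads. This was so for 35 members in H460, 3 in H1299, and 55 in A549, or 14.6%, 1.2%, and 22.9%. Among all protein-coding genes with a read the shares were 12.7%, 10.3%, and 13.1%, and among ZNF genes elsewhere 3.5%, 1.3%, and 5.3%. Among other coding genes of chromosome 19 they were 15.2%, 8.1%, and 10.9%, so that the share in H460 was close to that of the members. In H460 and A549 both, 30 members were not detected, of which 28 were found in H1299, and 21 of the 30 reached 1 TPM there. A gene without a read in 2 of the lines is a member only through reads in the remaining line, so the number found in H1299 was largely set by the choice of members. Another 25 were undetected in A549 but not in H460. A count of 0 allows up to 3 reads, and these limits cover counting error only. Of the 61 members undetected in some line, 41 shared no 100-base window with another chromosome 19 gene and 5 shared over 10%. Genes on other chromosomes were not searched.

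Taking members whose starts lie within 1 Mb of their neighbour as a cluster gave 16 clusters. In the cluster from ZNF101 to ZNF254 (chr19:19668070-24129968), 15 of 36 members were not detected in H460, 17 in A549, and 2 in H1299. In that from ZNF653 to ZNF791 (chr19:11483429-12633834), it was 9 of 25 in H460, 11 in A549, and 0 in H1299. In that from ZNF175 to ZNF331 (chr19:51571283-53580269), it was 4 of 39 in H460, 14 in A549, and 1 in H1299. The cluster from ZNF575 to ZNF296, with 24 members, had none in any line.

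**Figure D3:**
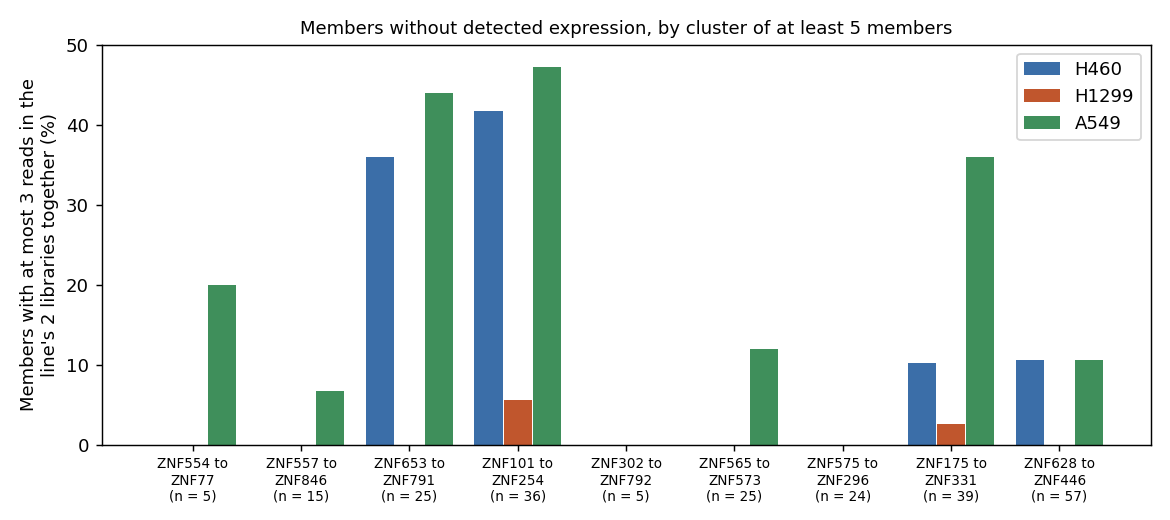
Share of members with at most 3 reads in the 2 libraries of a line, for the 9 clusters with at least 5 members, in H460, H1299, and A549. The bars of H460 and A549 are highest in the clusters from ZNF653 to ZNF791 and from ZNF101 to ZNF254, and only A549 exceeds 30% in that from ZNF175 to ZNF331.

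The fitted differences were counted by cluster as well. Members undetected in both H460 and A549 were tested only through their H1299 reads, so their direction was set by the filter. In the cluster from ZNF101 to ZNF254, 32 of 34 tested members were higher in H1299 than in H460 and 0 lower, with a median level of 5.65 TPM against 0.08 in H460 and 0.01 in A549. In the cluster from ZNF653 to ZNF791, 24 of 25 were higher and 0 lower, and the medians were 7.0, 0.21, and 0.32 TPM in the same order. At the end of the long arm, in the cluster from ZNF628 to ZNF446, 14 of 56 were higher and 9 lower, and the median log2 difference was 0.07. The 25% called higher there was near the 25.9% of all genes, and 16.1% stood beside 24.8% for those lower. Its medians of 3.45, 2.27, and 2.16 TPM were closer together.

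The longest run of undetected neighbours in H460 held 9 members, from ZNF43 to ZNF730 (chr19:21804946-23147886). In A549 the longest run held 8 of these, from ZNF208 to ZNF730. ZNF43 (Gene ID 7594), the member at the edge, had 0 and 0 reads in H460, 3997 and 3407 in H1299, while A549 had 269 and 347. It was at least 2150-fold higher in H1299 and at least 270-fold higher in A549 than in H460. The 2 other coding genes within the run had 0 reads in each line. A ZNF gene without any read is no member and counts as another gene here, so this is no separate comparison. Of 29 other genes of any kind within the run, 2 had more than 3 reads in H460, 8 in H1299, and 1 in A549. These runs were picked after their values were seen and are a description.

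In A549 a stretch of 18 members from ZNF528 to ZNF677 (chr19:52392752-53254903) held 2157 reads in all, against 20626 in H460 and 40642 in H1299, and 12 of the 18 were not detected. ZNF83 (Gene ID 55769), which has 14 fingers and no KRAB match, had 2156 and 1873 reads in H460, 2963 and 2322 in H1299, and none in A549. Its level in A549 was at least 1021-fold lower than in H460. ZNF600, ZNF320, ZNF888, and ZNF816 also had no read in A549, while H460 held 908, 678, 695, and 834 reads of them. Their neighbours ZNF611, ZNF28, and ZNF468 were low but present in A549, with 91, 134, and 75 reads against 1392, 3158, and 3176 in H460. In the midst of the stretch ZNF160 had 1834 reads in A549, 2570 in H460, and 4670 in H1299. Its mean of 5.86 TPM in A549 lay beside 5.16 TPM in H460. Of 16 other genes in the stretch, 14 had at most 3 reads in A549, 9 in H460, and 8 in H1299. They held 338 reads in A549, 933 in H460, and 4852 in H1299. The pseudogene NDUFV2P1, between ZNF665 and ZNF677, had 331 of these reads in A549 and 287 in H460. The pseudogenes ZNF321P, ZNF137P, ZNF818P, and ZNF702P had 0 reads in A549, against 512, 66, 45, and 8 in H460. Whether DNA of this stretch is altered in these cells was not tested.

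The members that set a line apart by the naming rule are given by line. ZNF844, ZNF730, ZNF257, and ZNF439 had no read in either library of H460 and A549. In H1299 ZNF844 had 2847 and 2985 reads, or 7.5 and 9.03 TPM, and was at least 1694-fold higher than in H460. For ZNF730, ZNF257, and ZNF439 the H1299 levels were between 5.44 and 12.2 TPM. In all, 127 members were higher in H1299 than in both other lines at an adjusted p under 0.05, and 6 were lower than in both. These are 53.8% and 2.54% of the members tested, beside 16.1% and 14.2% of all genes tested. Members without reads in H460 and A549, such as ZNF844, could only be called higher in H1299.

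The 6 members lower in H1299 included ZNF350 (Gene ID 59348, chr19:51964340-51986856), also called ZBRK1, a KRAB protein that binds BRCA1. It had 359 and 416 reads in H460, 302 and 375 in A549, and none in H1299, where it was at least 296-fold lower than in H460. It was the 1 member of 39 in its cluster that was undetected in H1299. The antisense gene ZNF350-AS1 had at most 10 reads in any library. ZNF223 had 18 and 0 reads in H1299 against 243 and 253 in H460. ZNF497 and ZNF784 were lower in H1299 than in H460 by log2 differences of -2.88 (SE 0.34, adjusted p = 0.0011) and -1.71 (SE 0.47, adjusted p = 0.026) in the edgeR test. For ZNF784 the call was lost without the control library of H460 or H1299 and with limma on log2(TPM + 1), where the adjusted p reached 0.14 over the alternatives.

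In H460, 26 members were lower than in both other lines and 6 higher, or 11% and 2.54%, beside 9.02% and 10.7% of all genes. The share lower was near that of all genes. ZNF256, ZNF418, and ZNF671 had no read in H460, so they could only be called lower there. All lie in the cluster from ZNF628 to ZNF446. ZNF671, which has been described as silenced by methylation in tumours, had 381 and 524 reads in H1299 and 64 and 85 in A549. Among those higher in H460, ZNF460 was at 23.2 and 18.5 TPM against 12.5 and 13.6 TPM in H1299 and 16.4 and 14.7 TPM in A549. For ZNF460 the call against A549 was lost under 4 alternatives, with an edgeR or limma adjusted p of up to 0.10. ZNF121 was at 24.9 and 17.0 TPM in H460, 16.1 and 11 TPM in H1299, and 13.8 and 9.09 TPM in A549, so that the lowest H460 value lay just above the highest of the others. ZNF132 was at 1.98 and 2.56 TPM in H460, 0.87 and 0.74 TPM in H1299, and 0.02 and 0 TPM in A549, and its call against H1299 was lost without the si-MALAT1 library of H460 or H1299, at an adjusted p of up to 0.12. ZNF536, a regulator of neuronal differentiation, had only 35 and 67 reads in H460, 0 and 6 in H1299, and none in A549. For ZNF536 both calls were lost under several alternatives, with adjusted p of up to 0.12 against H1299 and 0.099 against A549 in the edgeR, DESeq2, and limma fits.

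In A549, 60 members were lower than in both other lines and 3 were higher, or 25.4% and 1.27%, beside 7.51% and 8.42% of all genes. Members without reads in A549, such as ZNF83 and ZNF790, could only be called lower there. The 3 higher members were ZNF558, ZNF766, and ZNF480. ZNF558 was at 23.6 and 23.4 TPM in A549, 12.9 and 9.32 TPM in H460, and 11.3 and 10.9 TPM in H1299. ZNF766 and ZNF480 are adjacent members on the plus strand and were higher in A549 than in H460 by log2 differences of 0.59 (SE 0.15, adjusted p = 0.029) and 0.62 (SE 0.15, adjusted p = 0.023 by edgeR). These calls were lost without any one library of A549 or H460, and the adjusted p then reached 0.28 and 0.21. The call of ZNF480 against H1299 was also lost under 4 alternatives, and that of ZNF558 against H460 without the A549 si-MALAT1 library, at an adjusted p of 0.11. ZNF766 and ZNF480 lie in the cluster from ZNF175 to ZNF331, in which 28 of 39 members were lower in A549 than in H1299. ZNF790, in the cluster from ZNF565 to ZNF573 with ZNF146, also had no read in A549, with 414 and 352 reads in H460 and 981 and 609 in H1299.

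**Figure D4:**
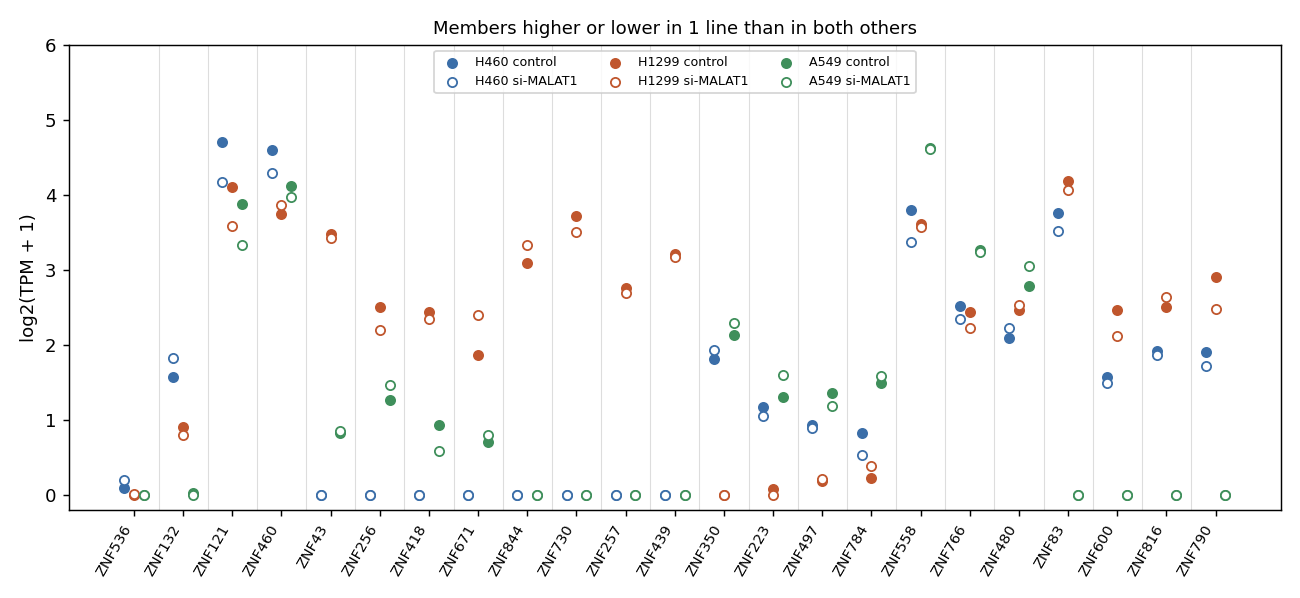
Level as log2(TPM + 1) of the 23 members chosen as higher or lower in 1 line than in both others, with 1 point per library. Control and si-MALAT1 points of a line lie close together, and points at 0 mark libraries in which the member had no read or almost none.

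Members with a known role were read from a list of 18 chosen from general knowledge. Among those that bind retrotransposons, ZNF91, known to repress SVA elements, had 56 and 56 reads in H460, 4115 and 5276 in H1299, while A549 had 5 and 26. In H1299 this was 11.7 and 18.0 TPM, and the fitted log2 difference from H460 was 6.16 (SE 0.34, adjusted p = 7.2e-05). ZNF93, known to bind L1 elements, had 990 and 719 reads in H1299, 0 and 3 in H460, and none in A549. ZNF611 was close in H460 and H1299, at 2.89 and 2.37 against 3.12 and 3.63 TPM, and at 0.23 and 0.30 TPM in A549. ZNF417 and ZNF587, a closely related pair that binds endogenous retroviruses, were found in each library. ZNF417 lay between 3.19 and 5.31 TPM and ZNF587 between 4.45 and 6.02 TPM over the libraries, and 17.0% and 14.5% of their windows are shared with other genes. ZNF587 was lower in H1299 than in H460 by a log2 difference of -0.50 (adjusted p = 0.025 by edgeR), a call lost with limma and without most single libraries, at an adjusted p of up to 0.58.

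Of members described as methylated or lost in tumours, ZNF677 had 567 and 493 reads in H1299 and none in H460 or A549. ZNF382 had 1363 and 1482 reads in H1299, 5 and 5 in H460, and 21 and 0 in A549. ZNF331 was different, with 34 and 16 reads in H460, 811 and 798 in H1299, while A549 had 918 and 744. It was higher in A549 than in H460 by a log2 difference of 5.46 (SE 0.32, adjusted p = 0.00016) and did not pass the test between A549 and H1299. ZNF649 had 708 and 510 reads in H1299 and at most 36 in any other library.

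ZNF568 and ZNF420, neighbouring members in the cluster from ZNF565 to ZNF573, were low in A549. ZNF568, whose mouse counterpart represses a placental Igf2 transcript, had 593 and 631 reads in H460, 2371 and 2399 in H1299, while A549 had 5 and 11. ZNF420, a KRAB protein, was at 6.15 and 6.11 TPM in H460, 12 and 11.3 TPM in H1299, and 0.45 and 0.58 TPM in A549. ZNF808, in which loss-of-function mutations cause pancreatic agenesis, had 1172 and 915 reads in H460, 1431 and 1269 in H1299, while A549 had 0 and 14.

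Other members of the list were found in each library. ZNF274, which targets SETDB1 to zinc finger genes themselves, was at 9.33 and 7.81 TPM in H460, 15.2 and 16.2 TPM in H1299, and 8.27 and 7.46 TPM in A549. It was higher in H1299 than in H460 by a log2 difference of 0.54 (SE 0.14, adjusted p = 0.018 by edgeR), and leaving out single libraries took the adjusted p to 0.085. ZNF224, a repressor of aldolase A, was higher in H1299 than in H460 by 1.24 (SE 0.14, adjusted p = 0.00082) on the log2 scale. ZNF473, which takes part in histone pre-mRNA processing, was between 3.29 and 6.07 TPM, and no pair of lines passed the test.

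The corepressors that KRAB proteins use were read beside the members. TRIM28 was at 57.4 and 50.8 TPM in H460, 69.8 and 55.2 TPM in H1299, and 107 and 93.1 TPM in A549. It was higher in A549 than in H1299 by a log2 difference of 0.73 (adjusted p = 0.0085) and did not pass the test between H1299 and H460. SETDB1 lay between 13 and 15.2 TPM in all libraries, and in H1299 it was lower than in H460 by a log2 difference of -0.40 (adjusted p = 0.040). Of 23 genes on the corepressor list, 11 were higher and 3 lower in H1299 than in H460, beside 25.9% and 24.8% of all genes tested. Among those higher were HDAC1, DAXX, and EHMT2, with log2 differences of 2.08, 1.495, and 1.44. CBX3, which encodes an HP1 protein, had a log2 difference of -1.005. In A549 against H1299, 3 of the 23 were higher and 10 lower, beside 22.8% and 24.4% of all genes. In A549 against H460, 3 of the 23 were higher and 3 lower, beside 17.4% and 17.9% of all genes. Their part in the members' levels was not tested.

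Promoters were compared for the 210 members matched to the RefSeq table, over the 300 bases from 250 before to 50 after the start. The 4 words were taken after all words of 8 bases had been ranked by the difference between their share of member promoters and of all 27305 promoters, so their shares are a description. TCCAATCA, which holds the CCAAT letters in this order, or its reverse complement was in 24.8% of member promoters and 1.61% of all. GTCACTCA was in 18.6% and 1.23%, CCGGAAGC in 23.3% and 3.9%, and AGGCCCCG in 25.2% and 5.17%, each on either strand. At least 1 of the words was in 99 of the 210, or 47.1%, beside 11% of all promoters. The words were kept from sharing any 5-base stretch, and neighbouring members that arose by duplication are not independent promoters.

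The words were counted in promoters of undetected and detected members. At least 1 word was in 22 of 30 promoters of members undetected in H460 (73.3%) and in 77 of 180 of the others (42.8%). In A549 it was 32 of 44 (72.7%) and 67 of 166 (40.4%). TCCAATCA was in 18 of the 30 in H460 and 22 of the 44 in A549, against 34 of 180 and 30 of 166. The promoters of undetected members also held fewer CpG sites, with a median of 13 against 21 in H460 and 16 against 21 in A549. As 30 members were undetected in both lines, the 2 lines are not separate observations. The cluster from ZNF101 to ZNF254 holds 15 of the members undetected in H460 and 17 of those in A549. Its members detected in all 3 lines also held few CpG sites, from 8 for ZNF737 to 18 for ZNF101. Cluster and detection were not told apart. In the promoters printed above, ZNF43 held 9 CpG sites and ZNF91 7, whereas ZNF83 held 23 and ZNF816 19. Over the same bases ZNF91 held all 4 words, ZNF43 held 3, ZNF83 and ZNF816 held 1 each, and ZNF146 none. No test was made of these shares, and methylation was not measured here.

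The question of the study was what changes when MALAT1 is lowered. In the paired test over the 3 lines by edgeR, 0 of 236 members were called higher and 0 lower, as were 0.0% of all 21771 genes in each direction. At an unadjusted p under 0.05, 11 members were higher and 11 lower, or 9.32% of members beside 13.03% of all genes. The median log2 difference of the members was 0.00, and 118 of the 236 were positive. DESeq2 called 1 member higher and 1 lower, ZNF708 and ZNF121, and called 763 genes higher and 692 lower in all. On simulated counts the same fit recovered 93% of genes changed 4-fold, and smaller changes were not simulated. Those counts had no differences between lines, the same relative spread for all genes, and the same change in each line. The real data are not so even, and MALAT1 itself, at a log2 difference of -2.72, was not called (edgeR adjusted p of 0.054). The 93% therefore does not carry over to these data. A missing call does not show that a gene was unchanged.

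ZNF121 (Gene ID 7675) had the smallest unadjusted p among members. It had 10072 reads in the control and 6999 in the treated library of H460. The counts were 6333 and 3814 in H1299, while A549 had 3275 and 2367, lower after si-MALAT1 in 3 of 3 lines. The fitted log2 difference was -0.57 (SE 0.11), with an adjusted p of 0.13 by edgeR and 3.1e-07 by DESeq2, and it ran up to 1 without the pairing by line. ZNF708 had 518 and 678 reads in H460, 1020 and 1568 in H1299, while A549 had 86 and 154, higher in 3 of 3 lines. Its fitted difference was 0.62 (SE 0.15), with an adjusted p of 0.19 by edgeR and 0.012 by DESeq2, and it too was 1 without the pairing.

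The other members named by the rule were ZNF675, ZNF71, ZNF543, and ZNF561 with higher values in the 3 lines and ZNF101, ZNF699, ZNF28, and ZNF850 with lower ones. Their fitted log2 differences were 0.57, 0.45, 0.45, and 0.39 and -0.50, -0.42, -0.79, and -0.47, with edgeR adjusted p between 0.24 and 0.31. ZNF28 had 1733 and 1425 reads in H460, 2552 and 1302 in H1299, while A549 had 100 and 34, and its change was uneven, from -0.20 in H460 to -1.68 in A549 on the log2 scale. Within a line the exact 95% Clopper-Pearson intervals of these folds cover counting error only.

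**Figure D5:**
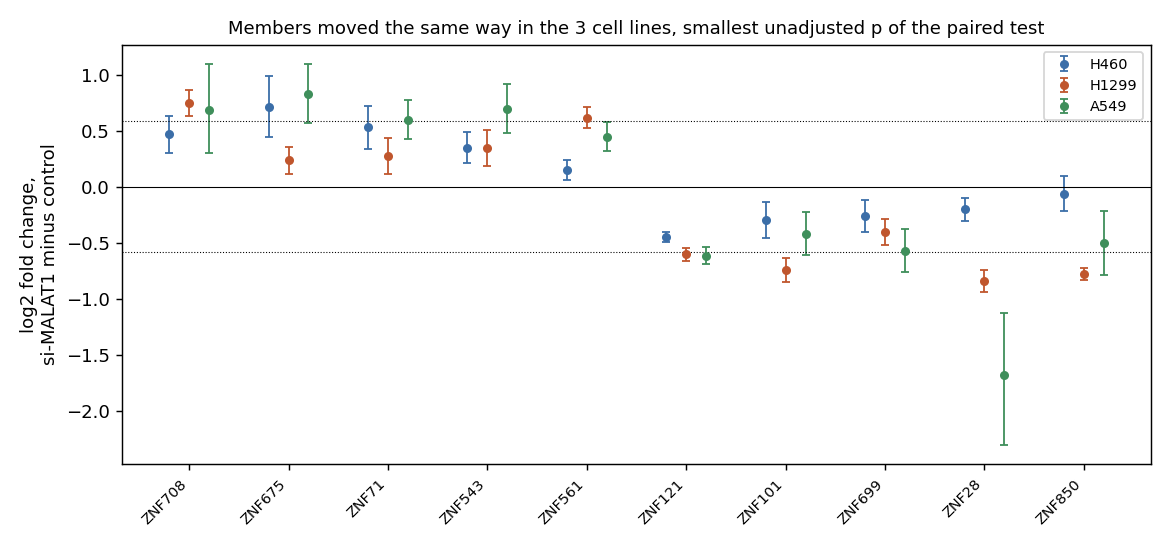
log2 fold change, si-MALAT1 minus control, within H460, H1299, and A549 for the 10 members chosen by the paired test's smallest unadjusted p, with exact 95% Clopper-Pearson intervals for counting error and dotted lines at 1.5-fold. The 5 members on the left are above 0 and the 5 on the right below 0 in the 3 lines, and the interval of ZNF850 in H460 includes 0.

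Within single lines, 165 members had a read in each of the 6 libraries. At 1.5-fold or more, 6 were higher and 7 lower in H460, beside 9.5% and 10.3% of 17834 genes, where the members' shares were 3.64% and 4.24%. In H1299 5 were higher and 8 lower, beside 11.7% and 11.4%. In A549 18 were higher and 8 lower, beside 11.5% and 11.4%, and 18 of 165 is 10.9%. The 5 higher in H1299 were ZNF561, ZNF708, ZNF493, ZNF540, and ZNF784. Members that went to or from 0 reads are not among the 165, which lowers these counts. Each line has 1 library per condition, so these folds have no replicate check. Of the 165, 35 were higher and 34 lower in all 3 lines, and 95 had mixed signs. The same was not counted over the 17834 genes, so these numbers do not show a shared response of the members.

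Some members had reads in 1 library of a line and none in the other. The same was not counted over all genes, so whether these numbers are unusual for the libraries is not known. In H460, 11 members had reads only after si-MALAT1, up to 49 reads for ZNF525, and 4 of them, ZNF525, ZNF726, ZNF556, and ZNF66, had over 10 reads. The 1 member with reads only in the H460 control had 6. In A549, 10 members had reads only after si-MALAT1 and 9 only in the control, among them ZNF177 with 31 and ZNF382 with 21 reads in the control. ZNF177 shares 93.9% of its windows with other genes, and the overlapping gene ZNF559-ZNF177 had 33 reads in the A549 control and 78 after si-MALAT1. Whether reads were assigned differently between them was not tested. In H1299 it was 3 and 2, among them ZNF223 with 18 reads in the control. The numbers of members without a read in the control and si-MALAT1 library were 44 and 34 for H460, 4 and 3 for H1299, and 56 and 55 for A549. A count of 0 allows up to 3 reads, so a lower level would not have been detectable.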

How the data were processed

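RNA-seq counts, TPM, and FPKM of 6 libraries were used, 1 control and 1 si-MALAT1 library of H460, H1299, and A549. Per the submitters' notes and the methods, the authors trimmed reads with Trimmomatic, aligned them with HISAT2 2.1.0 to GRCh38, and estimated abundances with StringTie, after preparing stranded libraries from rRNA-depleted RNA. Whether counting used the strand is not given in the sources used here. The deposited counts are whole, unnormalized read counts per gene. The deposited TPM are scaled by the authors for length and depth, and the deposited FPKM were read but not used for results. Another 18 columns of per-sample values were not used.

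Counts were fitted with edgeR 4.0.16 (TMM, filterByExpr, quasi-likelihood test, cell line and treatment as terms, Benjamini-Hochberg over 21771 genes, adjusted p under 0.05). The 2 libraries of a number come from the same line, and their deviations from the treatment means correlated at 0.887, 0.923, and 0.88 for H460, H1299, and A549. Within lines, log2(RLE-scaled count + 1) was used for genes with a read in each library. A fold against 0 reads is a bound at 3 reads over both libraries. DESeq2 1.42.0, limma 3.58.1, other scalings, filters, and left-out libraries were alternatives. Tested on simulated counts with 200 genes changed 4-fold, the fit recovered 93% (si-MALAT1, 20782 genes) and 88% (A549 minus H460, 20733 genes). These counts were drawn without other differences between lines and with the same relative spread for all genes, unlike the real data. Named genes were the 5 members with the highest mean TPM, the 5 higher and 5 lower in the 3 lines with the smallest paired p, up to 4 higher and 4 lower in each line than in both others, and lists from general knowledge. Members and lists were chosen with earlier results of these data known. R 4.3.3 and Python 3.11.15 were used. One marker gene is not reported here.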

Additional observations from a re-analysis of the deposited data

How the results depend on the processing

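In each alternative run more members were higher than lower in H1299 against H460, and more lower than higher in A549 against H1299. On log2(TPM + 1) with limma, members lower in H1299 than in H460 fell from 13 to 7, and members lower in A549 than in H460 from 66 to 41, equal to the 41 then called higher. Leaving out 1 library at a time, members called higher and lower were 126 to 140 and 7 to 12 in H1299 against H460, 18 to 34 and 50 to 71 in A549 against H460, and 6 to 15 and 133 to 163 in A549 against H1299. The fewest for A549 against H460, 18 higher, came without the A549 si-MALAT1 library, with 20 without the A549 control. For members lower in H1299 than in H460, 7 came without the H460 control, 8 without the H460 si-MALAT1 library, and 8 without the H1299 si-MALAT1 library. For members higher in A549 than in H1299, 7 came without the A549 control, 6 without the A549 si-MALAT1 library, and 8 without the H1299 si-MALAT1 library. Fewer samples enter each of these.

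In the paired si-MALAT1 test, DESeq2 called 1 member higher and 1 lower, and over all genes 763 and 692 against 0 and 0 by edgeR. Without the replicate block, 0 members were called in either direction, and leaving out a line gave 0 to 0 higher and 0 to 0 lower. A filter by treatment group, added after seeing the data, gave 0 members in either direction and 1 gene, MALAT1, lower over all genes, as did limma on log2(TPM + 1). Leaving out H460 gave 51 genes higher and 112 lower over all genes.

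Within lines, on log2(TPM + 1) the members past 1.5-fold were 0 higher and 1 lower for H460, 5 lower for H1299, and 3 higher and 1 lower for A549. At a log2 fold change of 1.5 H460 had 0 and 0, H1299 0 and 1, and A549 1 and 4. With a mean of 50 reads in that line, added after seeing the data, 15 were lower in H1299 and 5 lower in A549.

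Of values for named genes, 1174 kept direction and side of the threshold, 56 lost the call, 16 gained it, and 16 changed sign, with no adjusted p under 0.05 in the alternative. ZNF302 after si-MALAT1 was at 0.0056 with DESeq2 and 0.0058 with RLE scaling, and without single lines at -0.086 to 0.13. Without single lines ZNF428 ran from -0.20 to 0.27 and ZNF875 from -0.061 to 0.097, and ZNF875 was at -0.00042 with limma. In A549 minus H460, limma gave 0.0011 for ZNF587 and 0.035 for ZNF649. Leaving out single libraries took ZNF382 from -5.50 (without the A549 control) to 2.62, ZNF417 from -0.037 to 0.12 with -0.0038 between, and ZNF649 from -1.27 to 0.64. In H1299 minus H460 it took ZNF611 from -0.16 to 0.20 and ZNF808 from -0.12 to 0.47. The cause was not tested.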
